A study of Manis javanica with 3 samples.

Results

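The salivary gland library of an adult female Malayan pangolin (*Manis javanica*) was compared with the library labelled small intestine and the liver library of the same animal. The animal was wild, died while in rescue, was dissected soon after its death and had ants in its stomach, and the labels name no treatment. Each tissue gave 1 poly-T-selected mRNA library, so no difference below has a replicate check and none was tested. Of the 24220 genes in the deposited tables, 18037 had a count of at least 10 in 1 or more of the 3 libraries, and all of these were compared. For each gene, the FPKM in the salivary gland library (fragments scaled for transcript length and library size) was set against the higher FPKM of the other libraries as log2((FPKM + 1)/(FPKM + 1)), called the difference here. A gene was called salivary-high at a difference of 2 or more, which is 4-fold on the FPKM + 1 scale, and salivary-low at -2 or less.

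Salivary glands are built from acini, whose cells make and package secreted proteins and mucins, and from ducts, which change the ions of the fluid on its way to the mouth. Mucous acinar cells release heavily glycosylated mucins that make saliva viscous, serous cells release smaller proteins and enzymes, and myoepithelial cells squeeze the acini. Large salivary glands with sticky saliva are a known feature of mammals that feed on ants and termites.

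The counts of the salivary gland library came to 8318686 in total, and those of the others to 10158924 and 14568778. A gene without a fragment may therefore lie at up to 0.361 CPM (fragments relative to the library total) in the salivary gland library and 0.206 to 0.295 CPM in the others. These limits, like all intervals given here, cover counting error only, because fragments copied by PCR are not independent molecules. The top 3 genes held 30.003% of the summed FPKM of the salivary gland library. The library labelled small intestine carried gastric genes in place of enterocyte genes. Pepsin A (gene4646), a stomach protease, had an FPKM of 94138 there, and ATP4A, the catalytic subunit of the gastric proton pump, had 1073. All 11 stomach markers compared were salivary-low, with that library the higher. Of the enterocyte list, 21 genes were found, with a summed FPKM of 32.6 there, and 9 of them were compared. FABP2 and LCT, a fatty acid carrier and the lactase of enterocytes, were at count 0 in all 3 libraries. Its keratins KRT4 and KRT13, which mark squamous epithelium, had an FPKM of 825 and 729. It is therefore called the library labelled small intestine throughout.

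The salivary label itself was checked against its markers. Aquaporin 5 (AQP5), the water channel of acinar cells, had an FPKM of 94.3 in the salivary gland library, 2.29 in the library labelled small intestine and 24.7 in the liver library. The acinar regulator BHLHA15 had 95.9, 24.5 and 64.8 in the same order, and SPDEF, a regulator of mucous cells, had 8.25, 1.96 and 0. All 3 were highest in the salivary gland library, but none of them reached a difference of 2. Several classical salivary products were at or near 0 in the same library: the gel-forming mucin MUC5B had an FPKM of 0.245, the salivary carbonic anhydrase CA6 had 0.142, and lactoperoxidase (LPO) had 0.175. DMBT1, a further marker of the salivary gland, was below both other libraries with 0.329, 53.1 and 4.79 in the same order. PIP, another such marker, went the other way and was salivary-high with 27.96, 0.481 and 0. Of the 51 symbols of a list of secreted salivary proteins, 26 were found in the annotation.

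Of the 18037 genes compared, 258 were salivary-high (1.43%) and 1871 were salivary-low (10.4%). The median difference over all genes, each set against the higher of 2 libraries, was -0.48. The median was -0.05 against the library labelled small intestine alone and -0.10 against the liver library alone. Above both other libraries stood 4739 genes (26.3%). The difference reached 4 or more in 46 genes, 6 or more in 15, and 9 or more in 4. The salivary-high genes held 23.3% of the salivary counts and 35.9% of the salivary FPKM, against 0.267% of the counts in the library labelled small intestine and 0.294% of those in the liver library. Most of this came from 6 genes, which held 19.0% of the counts and 33.2% of the FPKM of the salivary gland library. In whole-tissue RNA, fewer cells of a type and less RNA per cell cannot be told apart. At the threshold itself, VPS51 was just inside with FPKM values of 80.8, 19.4 and 18.9, and PPP1R1B was just outside at 1.99.

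**Figure D1:**
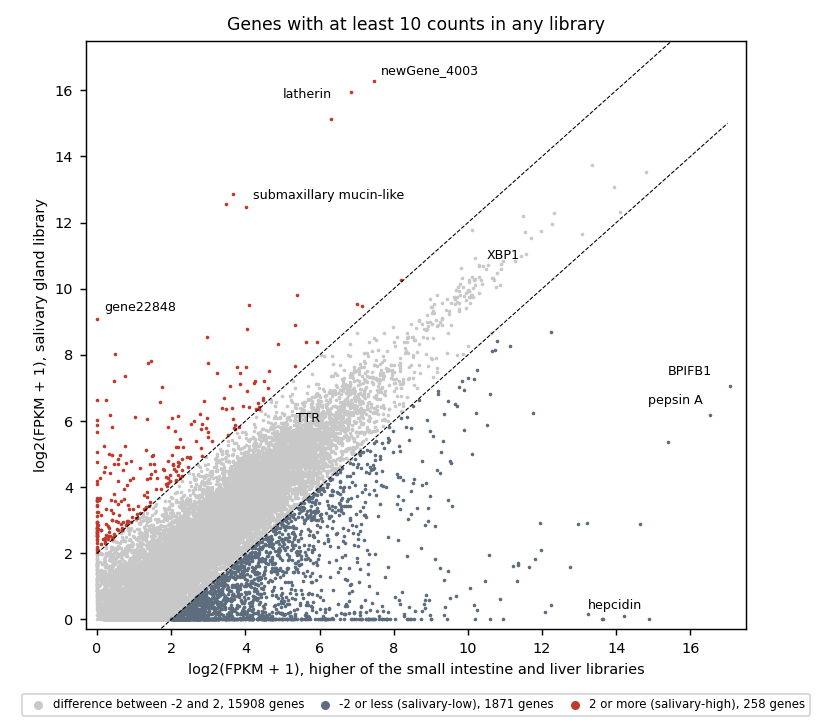
Each point is 1 of the 18037 genes, with log2(FPKM + 1) in the salivary gland library on the vertical axis and log2(FPKM + 1) in the higher of the other libraries on the horizontal axis. Dashed lines mark differences of 2 and -2, with 258 genes above the upper line, 1871 below the lower one, and latherin, newGene_4003 and the submaxillary mucin-like gene at the upper left.

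The salivary-high genes of highest FPKM were secreted proteins and genes with no annotation. Between them in the order of salivary FPKM stood mitochondrial, ribosomal and metallothionein genes that were not salivary-high, such as MT-ATP8 with 11848, 16589.7 and 28490.0. Latherin (LATH, gene14993), a surfactant protein of the BPI fold family known from horse sweat and saliva, had an FPKM of 62922 in the salivary gland library, 114.8 in the library labelled small intestine and 0 in the liver library. Its 660855 fragments were 7.94% of the salivary counts (95% Wilson interval 7.93 to 7.96%), against 1007 fragments in the library labelled small intestine and 0 in the liver library. Its difference was 9.09, which was the third of all genes. The gene lies at positions 59460 to 76336 on the plus strand of its scaffold, between other members of its family. BPIFA2 (gene14992), a salivary protein in other mammals, lies beside it and had 2 fragments in the salivary gland library and 0 in both others. BPIFA3 (gene14994) and BPIFA1 (gene14995), on its other side, were at count 0 in all 3 libraries. So 1 gene of this group of 4 neighbours held nearly all of its fragments.

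The deposited FPKM of newGene_4003 was higher than that of latherin, though lower (54797 against 69503) when both were remade from count and length. It is a gene that the authors assembled from the reads, with a transcript length of 667 and no entry in any of the annotation databases. Its FPKM was 80008 in the salivary gland library, 176 in the library labelled small intestine and 7.47 in the liver library, from 304045, 572 and 33 fragments. It held 13.4% of the salivary FPKM and 3.65% of the salivary counts. The gene spans positions 156818 to 195904 on the minus strand of a scaffold with 5 genes and overlaps newGene_4004, with which it may share reads and which had FPKM values of 29.97, 0.354 and 6.17. Genes of beta-casein (gene10329) and alpha-S1-casein (gene10330) lie on the same scaffold, with an FPKM of 0.606 and 2.91 in the salivary gland library. A second stretch with the same kind of neighbours carried gene22848, whose only match is an uncharacterized protein, and newGene_9802, which has no database entry. The former had an FPKM of 547 in the salivary gland library and 0 in both others, from 509 fragments (exact Poisson interval 466 to 555). Its CPM was 207-fold above the limit set by 3 counts in the library labelled small intestine. For the liver library this ratio was 297-fold. The counting error of the 509 fragments is not part of these ratios. The latter, 3363 bases away, had 162, 0.691 and 0. Kappa-casein (gene22846) lies on their scaffold with an FPKM of 1.93 in the salivary gland library. As background, the casein genes of mammals lie in a cluster with genes of several small salivary proteins, among them statherin and the histatins. No product of that name was found among the compared genes.

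The third gene by salivary FPKM was gene21524, a gene of the deposited gene set with no database entry that is the only gene on its scaffold. Its FPKM was 36169.8, 78.4 and 1.43, from 348286, 566 and 22 fragments. This FPKM was 5.26 times the value remade from its count and its listed length of 6092, whereas the median ratio over genes was 0.900, so its level rests on a length that the tables do not show. It remained the third gene by FPKM when all values were remade from counts and lengths. The submaxillary mucin-like gene (gene23163), whose product name is that of the gel-forming mucin of the salivary gland, had an FPKM of 5740.25, 15.2 and 0.155. Its 204968 fragments were 2.46% of the salivary counts.

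Lipocalins, small carriers of hydrophobic molecules that include odorant-binding and pheromone-carrying proteins, formed the group with the highest median. Of 6 lipocalin and odorant-binding genes compared, 3 were salivary-high and 0 were salivary-low, against 1.43% and 10.4% of all genes. Their median difference was 3.36. The odorant-binding protein-like gene (newGene_13428) had an FPKM of 7479.8 in the salivary gland library, 11.8 in the library labelled small intestine and 0 in the liver library, and its difference of 9.20 was the largest of all genes. The gene annotated as allergen Bos d 2, the bovine dander lipocalin (newGene_6239), had 6076, 10.2 and 0. A lipocalin matched to a dog allergen structure (gene18658) had 146, 0.360 and 0. All 3 were thus highest in the salivary gland library and without a fragment in the liver library. Outside this group by product name, a beta-lactoglobulin-1-like gene (gene26578) was also salivary-high, with 5.82, 0 and 0 from 18 fragments.

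In the library labelled small intestine, latherin stood at 0.182% of its salivary FPKM, newGene_4003 at 0.220% and the odorant-binding protein-like gene at 0.157%, while gene22848 was at 0. Over the 20 most abundant genes among those over 4-fold higher in the salivary gland library than in both others, the median was 0.674%, with a range from 0 to 17.9%. In the other direction, the corresponding 20 genes of the library labelled small intestine had a median salivary FPKM of 0.0902% of their value there. What part of these small values is RNA made in the tissue was not tested.

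**Figure D2:**
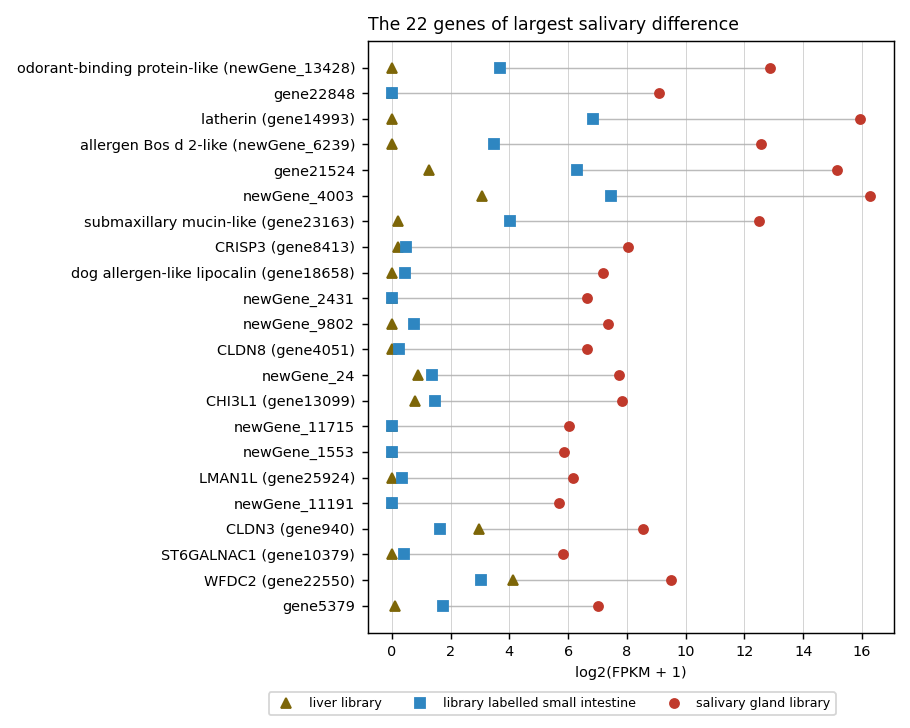
Points give log2(FPKM + 1) of the 22 genes of largest difference in the salivary gland library, the library labelled small intestine and the liver library, with a line from the salivary value to the higher of the others. The differences run from 9.20 for the odorant-binding protein-like gene downward, and 7 of the 22 genes are at 8 or more.

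Further secreted proteins of host defence and of the mucosal surface were salivary-high at lower levels. The gene with the symbol CRISP3 (gene8413), a cysteine-rich secretory protein of saliva and semen, is cysteine-rich secretory protein 2 by its NR entry. It had an FPKM of 260 in the salivary gland library, 0.409 in the library labelled small intestine and 0.146 in the liver library. CHI3L1 (gene13099), a chitinase-like protein that binds but does not cut chitin, had 226, 1.74 and 0.731. The chitin-cutting enzyme CHIA (gene3954) went the other way, with 40.0001, 43108 and 0. WFDC2, a protein with WAP domains that is made in ducts, had 729, 7.19 and 16.3. Beta-defensin 1 (DEFB1, gene20796), an antimicrobial peptide, had 899, 41.2 and 2.34, and a second gene annotated as beta-defensin 1 (newGene_8667), 35099 bases away, had 20.4, 0.266 and 0. A further beta-defensin 1-like gene of the group (gene20797) was salivary-low, with 1.90, 40.7 and 0. Lactotransferrin (LTF), which withholds iron from bacteria, had 59.1, 5.71 and 6.05, the prolactin-inducible protein homolog (PIP), a saliva protein, had 27.96, 0.481 and 0, and EGF, a growth factor of saliva, had 9.04, 0.808 and 0.473. CXCL17, a mucosal chemokine, had 93.7, 2.23 and 0.

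The BPI fold family was split. Of 7 members compared, 3 were salivary-high and 2 salivary-low, against 1.43% and 10.4% of all genes. Besides latherin, BPIFB2 (gene10302) had FPKM values of 15.99, 0 and 0 and BPIFB3 (gene10304) had 11.1, 0 and 0, from 301 and 220 fragments. BPIFB6 (gene10303), which lies between them, was at count 0 in all 3 libraries. BPIFB1 (gene2060), a secreted protein of airway and upper digestive mucosa, was in contrast salivary-low with 133, 136163 and 0. Among mucins, 3 of 24 members were salivary-high and 5 salivary-low, against the same 1.43% and 10.4% of all genes. Mucin-19 (newGene_13638), a gel-forming salivary mucin, had 11.2, 0 and 0, and mucin-20 (gene17246) had 4.90, 0 and 0, from 109 and 113 fragments. MUC1, a membrane mucin, was salivary-low with 7.57, 152 and 0.304, and the gene annotated as mucin-6 (gene20488), a mucin of stomach glands, was at 0.0460, 51.0 and 0.0104.

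Over the list of secreted salivary proteins as a whole, 34 genes were compared, with a median difference of -1.24. Of them 6 were salivary-high and 11 salivary-low, against 1.43% and 10.4% of all genes. Of the 11, 3 were at -2 or less against the lower of the others as well. The 6 were latherin, CRISP3, WFDC2, PIP, LTF and EGF. With the symbol of the Swiss-Prot entry used first in place of that of the KEGG entry, the same list gave 7 high and 14 low of 43. Amylase and lysozyme were not salivary-high. The amylase gene (AMY2) had an FPKM of 5.39, 8.56 and 16.3, and lysozyme (LYZ, gene25216) had 14.6, 17.3 and 30.9. A further gene annotated as lysozyme C (gene22777), outside the list, was salivary-low with 2.54, 3582 and 0.198. PIGR, the receptor that carries IgA into secretions, had 20.8, 8.75 and 19.5. Transcobalamin 1 (TCN1), the vitamin B12 carrier of saliva and gastric juice, was salivary-low with 58.5, 1456 and 1.89.

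Among 18 listed inhibitors of proteases, 5 were salivary-low and 2 salivary-high (2 of 16 by Swiss-Prot symbol), against 10.4% and 1.43% of all genes. These were WFDC2 and gene8467, which is WFDC18 by its Swiss-Prot entry but anosmin-1-like by its NR entry, with FPKM values of 70.9, 3.51 and 0.0704. Of the low ones, the cysteine protease inhibitor CSTA had 0, 194 and 0.207, and the trypsin inhibitor SPINK1 had 0, 25.6 and 11.6. A serpin gene, SERPINA11 (gene91), was salivary-high outside that list with 30.6, 0.119 and 1.86. Beside it, 328 bases away, lies newGene_24, with 214, 1.59 and 0.837 and no annotation. On the other side lies an alpha-1-antitrypsin-like gene (gene88) that was highest in the liver library, with 120, 15.5 and 586.

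Many salivary-high genes have no known product, and their sequences are the best description of them that the data hold. The copy of the study's new-gene sequences used here is shortened and holds 205 new genes, among them 6 of the 78 salivary-high ones. The first 300 bases of the longest open reading frame are printed for the pair of these 6 with the highest salivary FPKM, with the start codon in capitals and the rest in lower case, 5′ to 3′. In newGene_392, whose only match is an uncharacterized protein and whose FPKM was 30.2, 0.328 and 0, the frame has 167 codons from base 44 of a transcript of 830 bases. In newGene_24 it has 205 codons from base 1208, on the strand opposite to that of the printed transcript of 4801 bases. The reads were not stranded, and whether either frame is translated was not tested.
newGene_392: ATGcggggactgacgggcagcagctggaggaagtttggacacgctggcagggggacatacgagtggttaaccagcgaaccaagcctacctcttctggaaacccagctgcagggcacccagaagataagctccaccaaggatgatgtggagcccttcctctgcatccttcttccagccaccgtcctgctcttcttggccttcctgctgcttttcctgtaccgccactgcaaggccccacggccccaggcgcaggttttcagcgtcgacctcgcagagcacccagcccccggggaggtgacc
newGene_24: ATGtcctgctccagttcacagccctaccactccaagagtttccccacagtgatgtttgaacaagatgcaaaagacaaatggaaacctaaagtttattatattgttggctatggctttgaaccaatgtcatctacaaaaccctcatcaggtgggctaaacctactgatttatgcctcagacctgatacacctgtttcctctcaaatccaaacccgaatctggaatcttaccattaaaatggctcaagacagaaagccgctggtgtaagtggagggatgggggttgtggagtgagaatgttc

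Claudins, the proteins that seal the gaps between epithelial cells and set which ions pass, were among the groups with the most salivary-high members. Of 17 claudin genes compared, 5 were salivary-high and 3 salivary-low, against 1.43% and 10.4% of all genes. CLDN8 (gene4051), which restricts the passage of sodium in tight epithelia, had an FPKM of 99.2 in the salivary gland library, 0.192 in the library labelled small intestine and 0 in the liver library. CLDN3 (gene940) had 373, 2.15 and 6.84, and CLDN4, which lies 27444 bases away, had 81.0, 10.1 and 0.769. CLDN7 had 36.5, 3.55 and 1.28, and CLDN10, a claudin that forms pores, had 25.0, 0 and 0.363. The 3 low members were CLDN18 with 0.0711, 195 and 0, CLDN2 with 0, 9.81 and 10.6, and CLDN5, the claudin of endothelium, with 3.46, 17.1 and 7.64. The GO term tight junction was held by 7 of the 144 salivary-high genes with a GO entry (4.86%), against 0.422% of the 12567 compared genes with one and 0.381% of the salivary-low genes with one. These 7 may include the claudins above, and the overlap was not counted.

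The list of duct and basal cell markers, which includes 4 of these claudins, had 8 salivary-high genes and 0 salivary-low genes of 18, with a median difference of 1.03. By the Swiss-Prot symbol it had 8 of 15, and the median was 2.23. Of all genes, 1.43% were salivary-high and 10.4% salivary-low. KRT7, a keratin of simple ductal epithelium, had 197, 12.7 and 15.2, and both genes of EPCAM, an epithelial adhesion protein, were salivary-high with 104, 21.4 and 12.4 for the more abundant (gene380) and 84.5, 16.1 and 14.3 for the other (gene4180). The basal cell keratins KRT5 and KRT14 were not high: KRT5 had 55.0, 88.2 and 0, and KRT14 had 34.9, 77.1 and 0. PROM2, a protein of membrane protrusions in epithelia, had 216, 6.97 and 0.0626.

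Saliva is made as a chloride-rich fluid by the acini and altered in the ducts. Of 31 listed genes for this transport, 2 were salivary-high and 3 salivary-low (2 and 3 of 30 by the Swiss-Prot symbol). Over all genes 1.43% were high and 10.4% low. The list median was -0.27, against -0.48 over all genes. SLC12A2, the sodium, potassium and chloride cotransporter that loads acinar cells with chloride, had an FPKM of 40.8, 7.51 and 1.36. CFTR (gene20826), the chloride channel of duct cells, had 11.1, 0.211 and 0.569, and a second CFTR gene (gene24896) had 3.46, 0.186 and 0.126, a difference of 1.91. The sodium channel subunit SCNN1A had 22.1, 8.44 and 1.05 and the calcium-gated potassium channel KCNN4 had 3.07, 0.551 and near 0, both below the threshold. The carbonic anhydrase CA2 was salivary-low with 0.0939, 85.8 and 0.833. Transport genes outside that list were salivary-high too: FXYD2, a regulatory subunit of the sodium pump, had 24.9, 0.471 and 0, the phosphate transporter SLC34A2 had 37.3, 0.671 and 0.419, and the zinc transporter SLC39A8 had 324, 28.2 and 20.9. ATP2C2, a calcium and manganese pump of the Golgi in secretory cells, had 63.5, 5.11 and 0.0344.

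Of 25 receptors that start secretion and their calcium signalling partners, 0 were salivary-high and 3 salivary-low. By the Swiss-Prot symbol it was 0 and 4 of 32. These counts are close to the 1.43% and 10.4% of all genes, and the list median was -0.31 against -0.48. The largest difference was that of CHRM3, the muscarinic receptor that drives salivary flow, with an FPKM of 9.91, 3.92 and 0.0189 and a difference of 1.15. The 3 genes annotated as STIM1, a calcium sensor of the endoplasmic reticulum, had 33.2 to 37.1 in the salivary gland library and differences of 0.80 to 0.90. These genes had values close to each other, and reads could be split between them.

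The list of acinar and secretory regulators and that of duct and basal cells were the lists with a median above 0, and which of them stood higher depended on the symbol used. Of 34 regulators compared, 26 were above both other libraries (76.5%, against 26.3% of all genes), and the median difference was 1.37. Of them 10 were salivary-high and 0 salivary-low, against 1.43% and 10.4% of all genes. By the Swiss-Prot symbol, which names several of these genes by a relative, it was 6 high and 4 low of 41 with a median of 0.38. CREB3L1, a transcription factor activated at the endoplasmic reticulum of secretory cells, had an FPKM of 338 in the salivary gland library, 60.5 in the library labelled small intestine and 4.43 in the liver library. Its relative CREB3L4 had 28.7, 4.63 and 1.12. TFCP2L1 (gene21438), a regulator of ducts, had 11.8, 0.0631 and 0, and FOXI1, the regulator of ion-transporting cells rich in proton pumps, had 5.75, 0 and 0. The epithelial ETS factors ELF5 and EHF had 22.5, 2.44 and 0, and 46.8, 10.6 and 0.763. XBP1, the main regulator of the unfolded protein response in secretory cells, was abundant but shared with the liver library: it had 1640.05, 159 and 1258, a difference of 0.38.

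Of 89 homeobox genes, transcription factors of development, 6 were salivary-high and 17 salivary-low, against 1.43% and 10.4% of all genes. Their median difference was -0.71, against -0.48 over all genes. TLX1 had an FPKM of 9.90, 0 and 0. The 3 iroquois genes IRX2 (gene23214), IRX1 (gene10976) and IRX3 (gene16086), named here from the NR product because their Swiss-Prot symbol is that of a relative, had 21.1, 0.136 and 0.0596, then 11.8, 0 and 0, then 65.5, 11.7 and 2.28. Other transcription factors, named after their values were seen, were salivary-high at low FPKM: TFAP2B had 18.4, 0.0658 and 0.0501, FOXC1 had 10.3, 0.486 and 0.325, and PAX9 had 3.87, 0.0831 and 0. The salivary-low homeobox genes included HOXB3 with 0.174, 5.76 and 0.937. They also included BARX1 (newGene_7714), a factor of stomach mesenchyme, with 0.246, 63.5 and 0, and HHEX with 1.74, 1.27 and 49.9.

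The list of machinery that folds and moves secreted proteins had a median of -1.07, near the -1.24 of the list of secreted salivary proteins. Of 55 listed machinery genes, 43 were above the library labelled small intestine but 42 were below the liver library. Of them 1 was salivary-high and 10 were salivary-low, against 1.43% and 10.4% of all genes. By the Swiss-Prot symbol it was 2 high and 9 low of 53. The chaperones of the endoplasmic reticulum were the lowest against the liver library. HSPA5 (gene10048), the central chaperone, had an FPKM of 96.4, 68.5 and 703, CALR, a chaperone of glycoproteins, had 90.8, 83.7 and 800, and HYOU1 had 14.1, 28.1 and 176. The salivary-high gene was KDELR3, a receptor that returns proteins to the endoplasmic reticulum, with 49.4, 7.01 and 2.87. RAB27B and RAB3D, which act in the release of granules, had 20.5, 4.62 and 0.642, and 67.2, 32.1 and 33.7. RAB26, a further granule protein outside that list, was salivary-high with 42.5, 2.98 and 3.73. So was LMAN1L (gene25924), a relative of the cargo receptor LMAN1, with 70.9, 0.268 and 0, while LMAN1 itself had 32.3, 12.7 and 78.6. AGR2, a protein disulfide isomerase needed for gel-forming mucins in the gut, was salivary-low with 22.2, 573 and 0.508.

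**Figure D3:**
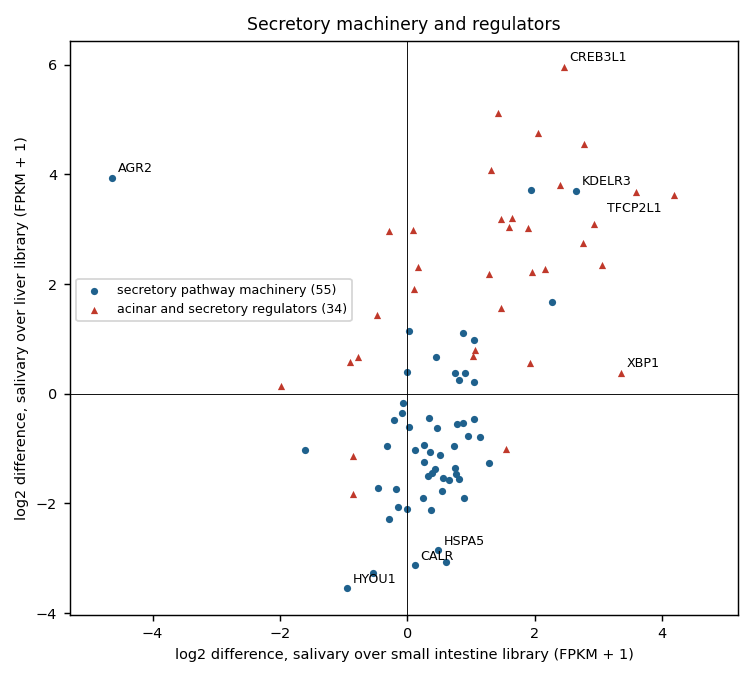
Each point is 1 listed gene, with the log2 difference (FPKM + 1) of the salivary gland library over the library labelled small intestine on the horizontal axis and over the liver library on the vertical axis. Regulators (34 triangles) lie mostly at the upper right, above both, while machinery genes (55 circles) lie mostly at the lower right, with 43 above the library labelled small intestine and 42 below the liver library.

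The sugar chains of mucins start with N-acetylgalactosamine and are often capped with sialic acid. Of 27 listed genes of mucin type glycosylation, 2 were salivary-high and 5 salivary-low (2 and 3 of 34 by the Swiss-Prot symbol). Over all genes 1.43% were high and 10.4% low. ST6GALNAC1, which caps the first sugar with sialic acid, had an FPKM of 55.5, 0.318 and 0, and GALNT5, which adds the first sugar, had 8.01, 0.492 and 0.00912. The lysosomal sialic acid exporter SLC17A5 was salivary-high outside that list, with 45.0, 6.94 and 5.29. The neighbouring enzyme ST6GALNAC2 was salivary-low with 15.0, 93.1 and 15.3, and ST6GAL1, which acts on N-linked chains, had 1.97, 1.70 and 93.0.

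No list of all metabolic genes was made, so those named here are single examples. UCP2, a carrier of the inner mitochondrial membrane, had an FPKM of 438, 12.9 and 15.3. PDK4, which inhibits the use of pyruvate by mitochondria, had 719, 125 and 140. ACLY and FADS1, enzymes of fatty acid supply, had 174, 13.4 and 7.72, and 40.8, 5.40 and 4.08. CNDP1, a dipeptidase, had 66.4, 1.29 and 1.52, and GLUL, which makes glutamine, had 3479, 1096 and 93.5, a difference of 1.67.

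Annotation and position did not enter the rule that chose the 258 salivary-high genes. New genes were, however, built from mapped reads of the study, so they depend on expression. They made up 78 of the salivary-high genes (30.2%) and 18.4% of the salivary-low genes, against 14.8% of all compared genes. No entry in any annotation database was found for 61 salivary-high genes (23.6%) and 9.83% of the salivary-low genes, against 8.59%. Of these 61, 60 were new genes and the other was gene21524, and together they held 19.99% of the salivary FPKM. The median transcript length, which also enters FPKM, was 2142 in the salivary-high genes and 2320 in the salivary-low genes, against 2832 over all compared genes. As a description of values that the comparison did use, 37 genes were at count 0 in both other libraries, 71 had 3 counts or fewer in each, and the higher of the others was the library labelled small intestine in 161 and the liver library in 60. The lowest salivary count among them was 10, and 34 had under 50. The genes lay on 236 scaffolds, and 18 neighbouring pairs lay within 100 kb, of which 14 contained a new gene and 4 overlapped. In overlapping pairs, such as newGene_5392 (FPKM 1225.5, 69.5 and 291) and newGene_5390 (739, 45.6 and 129) on opposite strands, the reads cannot be assigned to 1 gene because the counting was not stranded. The GO term extracellular region was held by 8.33% of the salivary-high genes with a GO entry, 5.71% of the salivary-low genes with one and 2.03% of all, and the related term extracellular space by 2.78%, 8.15% and 2.47%. The term apical plasma membrane was held by 3.47%, 0.914% and 0.780% in the same order.

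Markers of other cell types that the tissue could hold were seldom above both other libraries, though most of them were above the liver library for several lists. Of 11 markers of myoepithelial and smooth muscle cells, 0 were salivary-high, 7 were salivary-low and 7 were above the liver library. Over the 16 genes found, compared or not, the summed FPKM was 551, 4674 and 121 in the same order of libraries as above. ACTA2, the actin of both cell types, had 111, 130 and 2.65, and the smooth muscle protein CNN1 had 32.4, 623 and 0.346. Of 14 fibroblast markers 8 were salivary-low, and COL1A1, a chain of collagen I, had 2.64, 50.8 and 0.202. Of 13 squamous markers 10 were salivary-low, and over all genes 10.4% were. Plasma and B cells (7 genes), skeletal muscle (13), T and natural killer cells (16), nerve (22), endothelium (14), thyroid (8), pancreatic acini (8) and erythroid cells (2) gave 0 salivary-high genes each, which for lists of this size is close to the 1.43% of all genes. Adipocyte markers gave 1 of 8, FABP4, a fatty acid carrier of fat cells, with 18.5, 1.70 and 0, whereas ADIPOQ (gene23316), a hormone of fat cells, had 9.13, 13.8 and 1.33. The part of these cell types in the differences above was not tested. By the Swiss-Prot symbol, skeletal muscle gave 2 salivary-high genes of 19 and nerve 1 of 23.

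**Figure D4:**
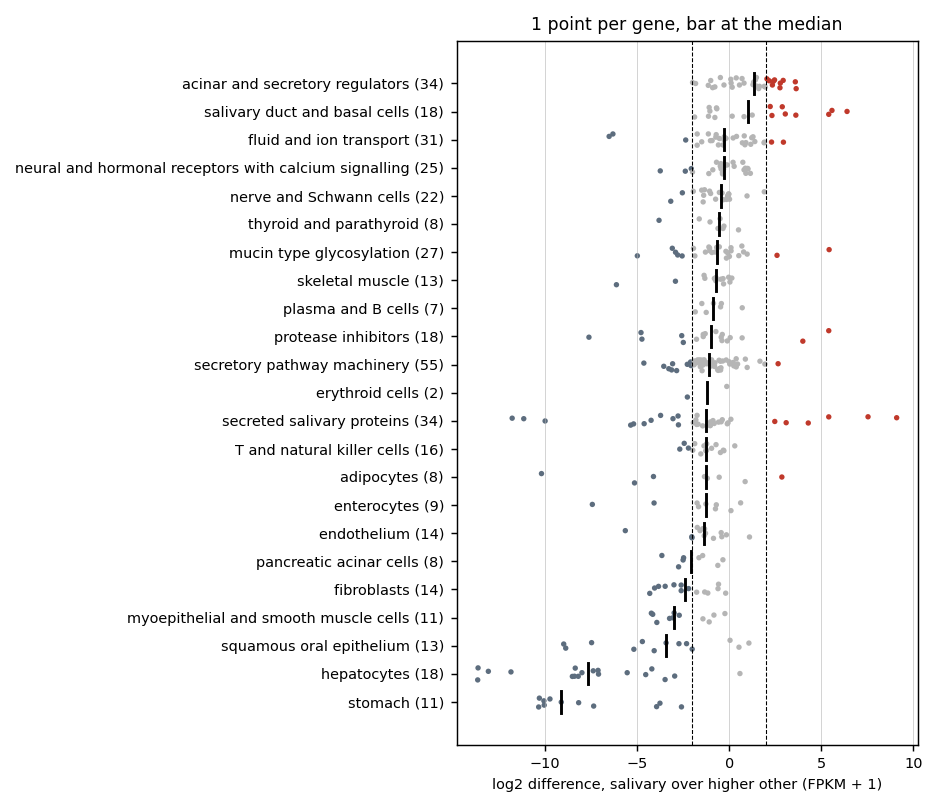
Each point is the log2 difference (FPKM + 1) of 1 gene in the salivary gland library against the higher of the others, in 23 lists with the number of genes compared in parentheses and a bar at the median. The medians of 2 lists, the acinar and secretory regulators and the duct and basal cells, lie above 0, and those of the hepatocyte and stomach lists are the lowest.

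Of the 1871 salivary-low genes, the higher library was the liver library in 1122 and the library labelled small intestine in 749. The salivary FPKM was at or above that of the remaining library in 418 of the former and 411 of the latter. They held 2.67% of the salivary counts, 51.0% of the counts of the library labelled small intestine and 39.1% of those of the liver library, and 415 were at count 0 in the salivary gland library. The lowest difference was that of hepcidin (HAMP), the liver hormone of iron balance, with an FPKM of 0, 3.07 and 30304. The fibrinogen chains FGB and FGG were at 0 in both other libraries and at 12822 and 12649 in the liver library. On the side of the library labelled small intestine, pepsin A had 71.7, 94138 and 0 and gastricsin (PGC, gene7091) had 6.48, 9427 and 0. Of 18 genes with the symbol of a hepatocyte marker, 17 were salivary-low, against 10.4% of all genes. The exception was gene10056, with the symbol TTR but the product name 5-hydroxyisourate hydrolase-like. It had 53.1, 22.8 and 35.1, and it may not be the marker itself.

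Genes below both other libraries, with a difference of -2 or less against the lower of them, numbered 126 (0.699%), of which 19 were at count 0 in the salivary gland library. Serum albumin and fibronectin had the lowest differences against the lower of the others, at -6.24 and -4.47. Serum albumin (ALB) had an FPKM of 0.194 from 4 fragments in the salivary gland library, 89.1 in the library labelled small intestine and 434 in the liver library. Fibronectin (FN1), a matrix and plasma protein, had 4.26, 276 and 116, and APOE, a lipid carrier, had 6.56, 66.1 and 3937. Regulators of gut and liver were also below both. GATA4 had 0, 33.5 and 10.3, and FOXA3 had 0.843, 8.67 and 80.7. IGF2 and IGFBP2, a growth factor and a binding protein for it, had 2.94, 31.9 and 179, and 18.6, 153 and 278. VCAM1, an adhesion protein of activated endothelium, had 0.690, 13.0 and 12.7, and S100A8, a protein of neutrophils, had 13.8, 354 and 105. PAPSS2, which makes the donor for sulfation, had 0.685, 13.3 and 12.7.

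Grouped by product, the salivary-low genes of some families came mainly from 1 library, while others were split, such as homeobox proteins (8 with the library labelled small intestine and 9 with the liver library the higher) and laminins and integrins (6 and 6). Of all compared genes, 10.4% were salivary-low and 1.43% salivary-high. Of 43 complement genes 29 were salivary-low, 27 of them with the liver library the higher. Of 39 immunoglobulin genes 20 were, all with the liver library the higher. An immunoglobulin kappa light chain gene (newGene_7309) was nevertheless at 158 in the salivary gland library, against 0 and 241. Cytochrome P450 genes gave 21 low and 1 high of 49, the high one being CYP4B1 with 18.6, 0.955 and 0.536. Collagens gave 16 low and 0 high of 53, 14 of them with the library labelled small intestine the higher, and kallikreins, proteases that are abundant in the saliva of some mammals, gave 8 low and 0 high of 12. Among the low ones, KLK10 had 3.29, 29.7 and 24.4. General cell functions gave few high or low genes. Cytosolic ribosomal proteins gave 1 low and 0 high of 98 with a median of -0.08. ATP synthase and NADH dehydrogenase gave 0 and 0 of 62 with a median of -0.26. Mitochondrial ribosomal proteins gave 2 low and 0 high of 82 with a median of -0.61, and proteasome subunits 2 and 0 of 43 with -0.95. ND1 (gene27152), a mitochondrial gene of NADH dehydrogenase outside these groups by product name, was below both others with 73.5, 383 and 658. Zinc finger genes, the largest group, gave 21 low and 0 high of 532. In all, 38 of the 258 salivary-high genes and 334 of the 1871 salivary-low genes fell in the 55 product groups.

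**Figure D5:**
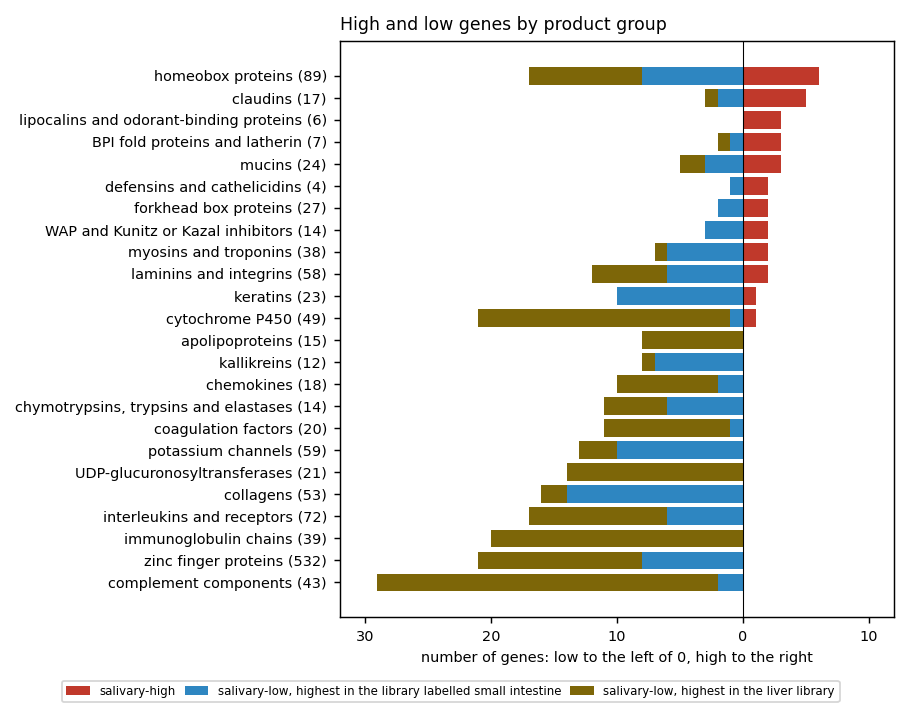
Bars show the number of salivary-high genes to the right of 0 and of salivary-low genes to the left, the latter split by the library that was the higher, for product groups with at least 2 high or at least 8 low genes and with the number of genes compared in parentheses. Homeobox proteins (6) and claudins (5) have the most salivary-high genes, and complement components (29) the most salivary-low genes.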

How the data were processed

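Poly-T-selected mRNA of the salivary glands, the tissue labelled small intestine and the liver of 1 animal was sequenced in pairs, with 1 library each. The authors trimmed adaptors, dropped reads of low quality, aligned with TopHat2 and built new genes from unannotated reads with Cufflinks. The reads were not stranded, and the genome build is not given in the sources used here. The deposited counts are whole numbers of fragments per gene that the authors did not scale, and the tool that counted them is not named. For FPKM, the authors divided fragments by transcript length and by mapped fragments, with RSEM as the tool the study names. A score that the authors deposited beside them equals the count multiplied by a factor of the library and served as a check. Gene products come from the authors' annotation, of which the Swiss-Prot, NR, KEGG and GO fields were read.

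Genes with a count of at least 10 in any library entered (18037; 6183 were left out), 1 was added to FPKM, and genes were called at a log2 difference of 2 or -2. No test was made, because there was 1 library per tissue. Shares of counts carry 95% Wilson intervals, single counts exact Poisson intervals, and the upper limit for a gene without a fragment was 3 counts. Python 3.11.15, pandas 2.3.3, numpy 2.4.6, scipy 1.17.1 and matplotlib 3.10.9 were used, and TMM factors came from edgeR 4.0.16 in R 4.3.3. The steps were tested on simulated data.

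Lists were to be matched by the symbol of the Swiss-Prot entry and, failing that, of the KEGG entry. Of 7453 genes with both symbols, 3180 differ, and the former was often that of a relative. The KEGG symbol was therefore used first in the text, a choice made after seeing the data, with the other counts beside it. Product groups were matched in the Swiss-Prot and NR product names.

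The members, lists and groups were chosen with earlier results of these data known. Genes to be named were the 40 largest differences, the 20 highest salivary FPKM values, in each list the 4 highest salivary FPKM values and the 4 largest and 2 lowest differences, in each product group with over 3 calls the 4 largest and 4 lowest differences, and the 20 lowest differences against the higher and against the lower of the others. Any further gene was named with its values already seen. Open reading frames were found by scanning both strands of the new-gene transcripts given with the study, which were used in part. Some genes are not reported here. The RefSeq gene table was not joined, because the gene identifiers carry no locus tag. Alternatives changed the number added to FPKM, the count minimum, the scaling, the threshold, the symbol used and the genes entered, and remade FPKM from count and length.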

Additional observations from a re-analysis of the deposited data

How the results depend on the processing

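No paired analysis was possible because each tissue had 1 library. With 0.1 added to FPKM in place of 1, the salivary-high genes numbered 557 (258 in the text), the salivary-low genes 3697 (1871) and the genes below both others 556 (126), and with 10 added they numbered 67, 486 and 11, since the number added sets how far low values can differ. With a threshold of 1 they numbered 920, 5154 and 668, and with a threshold of 3, 97, 818 and 22. With FPKM remade from count and length, an alternative chosen after seeing the data, the genes below both others fell to 63, and the cause was not tested. Under the other alternatives (no count minimum, a minimum of 50 counts, TMM, TPM, scaling without the 50 most abundant genes, no new genes) each count stayed within 1.5 times: the salivary-high genes numbered 180 to 382. With TMM 191 of the 258 remained at 2 or more, and all 258 stayed above 0 under every scaling tried. The median difference of all genes was -0.48 and ran from -0.72 with TMM to -0.15 with remade FPKM. The lists with a median above 0 numbered 2 in each alternative. Single genes were rerun with other numbers added to FPKM, other scalings and remade FPKM, for the difference against the higher library only. No gene rerun that was called high or low changed sign. Genes named only from the product groups, or after their values were seen, were not rerun unless salivary-high. Depth limits the low genes: 34 salivary-high genes rested on under 50 fragments.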
